A study of Mus musculus with 32 samples.

Results

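The comparison described here asks what interferon gamma (IFNg) adds to, or removes from, the Pam3CSK4-treated state of wild-type mouse hematopoietic progenitors. Its members were taken from the library titles: 4 wild-type libraries treated with IFNg and Pam3CSK4 together against 4 wild-type libraries treated with Pam3CSK4 alone, 8 of 32 libraries in all. Each of the 32 libraries is total RNA, depleted of ribosomal RNA, from a fetal liver progenitor line. The lines were immortalised with ER-HOXB8, a HOXB8 fused to an estrogen receptor domain that keeps progenitors dividing while estradiol is present.

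The wild-type line, hi-77+/+, has both copies of the Gata2 -77 enhancer (genotype Gata2 -77+/+), and the mutant line, hi-77-/-, lacks them (Gata2 -77-/-). Cells were exposed for 4 h to both agents, to Pam3CSK4, to IFNg or to vehicle, with 4 libraries per line and treatment. The dose of IFNg was 1 ng/ml and that of Pam3CSK4 was 100 ng/ml, singly and together. All groups shared the immortalising construct, estradiol, medium conditioned with stem cell factor, and G418. Each genotype is represented by 1 named line. Nothing in the labels tells separate cultures from repeated sampling within a group, so the p-values measure the spread between these libraries, which may be technical.

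IFNg binds the IFNGR1 and IFNGR2 receptor chains, and the JAK kinases attached to them phosphorylate STAT proteins, which bind gamma-activated sequences (GAS) and switch on IRF1 and other transcription factors of a second wave. Pam3CSK4 is a synthetic triacylated lipopeptide sensed by TLR2 together with TLR1, which signals through MYD88 and IRAK kinases to NF-kB and MAP kinases. In macrophages the 2 inputs meet on promoters that carry both interferon-responsive and NF-kB sites, as in many inflammatory genes.

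Promoters of 4 genes that the comparison turns on, Cxcl10, Irf1, Gbp2 and Acod1, are shown first. Cxcl10 is a chemokine gene that rose with each agent, and Irf1 is a transcription factor gene. Gbp2 is a guanylate-binding protein gene, and Acod1 encodes the enzyme that makes itaconate. The sequences are from RefSeq, build GRCm38.p6, and run 5′ to 3′ from 250 bases before to 50 bases after the start of the gene. Capitals mark a GAS motif (TTCNNNGAA), a pair of interferon-stimulated response half-sites (GAAANNGAA) or a kB motif (GGGANTTCC), each searched on both strands. The Cxcl10 window lies at chr5:92348840-92349139 on the minus strand, that of Irf1 at chr11:53769764-53770063 on the plus strand, that of Gbp2 at chr3:142620413-142620712 on the plus strand, and that of Acod1 at chr14:103046762-103047061 on the plus strand.
Cxcl10: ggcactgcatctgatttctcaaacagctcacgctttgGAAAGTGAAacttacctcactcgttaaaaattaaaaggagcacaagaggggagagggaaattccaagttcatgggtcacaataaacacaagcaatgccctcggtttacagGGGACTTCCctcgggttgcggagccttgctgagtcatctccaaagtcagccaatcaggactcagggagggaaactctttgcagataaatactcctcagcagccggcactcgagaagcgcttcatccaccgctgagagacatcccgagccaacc
Irf1: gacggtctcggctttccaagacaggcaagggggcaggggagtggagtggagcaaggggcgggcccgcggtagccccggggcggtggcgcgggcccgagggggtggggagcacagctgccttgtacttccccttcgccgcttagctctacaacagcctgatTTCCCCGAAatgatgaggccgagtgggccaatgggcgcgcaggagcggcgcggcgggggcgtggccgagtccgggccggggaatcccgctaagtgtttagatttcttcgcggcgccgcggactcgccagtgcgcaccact
Gbp2: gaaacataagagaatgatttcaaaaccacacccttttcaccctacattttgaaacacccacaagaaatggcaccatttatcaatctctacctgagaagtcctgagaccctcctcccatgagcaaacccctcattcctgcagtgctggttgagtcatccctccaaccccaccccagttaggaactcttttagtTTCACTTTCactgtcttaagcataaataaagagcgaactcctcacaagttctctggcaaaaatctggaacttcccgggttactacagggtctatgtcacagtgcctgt
Acod1: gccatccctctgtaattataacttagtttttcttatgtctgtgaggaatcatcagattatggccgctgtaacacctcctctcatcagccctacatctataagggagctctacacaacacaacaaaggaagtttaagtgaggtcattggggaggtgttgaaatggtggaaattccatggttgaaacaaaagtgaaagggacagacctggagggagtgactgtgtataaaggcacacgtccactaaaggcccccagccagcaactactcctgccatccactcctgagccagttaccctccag

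The Cxcl10 window held a GAAANNGAA match that begins 213 bases before the start and a kB match that begins 103 bases before it. That of Irf1 held a GAS match beginning 90 bases before the start, and that of Gbp2 held GAAANNGAA on the opposite strand, beginning 58 bases before the start. None of the 3 motifs was found in the Acod1 window, which says only that these letters are not in it. Of the 32851 RefSeq windows, 8.3% held the GAS motif, 8.56% GAAANNGAA and 1.68% the kB motif, and of the 12594 windows of tested genes 6.91%, 7.38% and 2.3% did. The genes called at least 2-fold higher with both agents, described below, had a RefSeq window for 207 of 320 by symbol, and GAAANNGAA stood in 30.5% of these 266 windows, the GAS motif in 17.3% and the kB motif in 3.38%. The genes called at least 2-fold lower had a window for 69 of 148, with the same motifs in 5.95%, 5.95% and 1.19% of 84 windows. These shares describe letters and not binding.

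The 8 libraries held between 47684229 and 64145386 expected counts each, against 44182690 to 71424183 over all 32. Of 55487 gene identifiers, 14869 passed the filter on low counts and were tested with edgeR's quasi-likelihood test, fitted on all 32 libraries, and a gene was called at a Benjamini-Hochberg adjusted p under 0.05 over all tested genes. Levels are CPM, counts scaled to a common library size and not divided by gene length, so they compare libraries and not genes. Mitochondrial genes and small structural RNA genes, together called structural RNA here, took 12.8 to 14.2% of the counts with both agents and 13.6 to 16.9% with Pam3CSK4 alone, but 19.4 to 28.8% in the wild-type vehicle libraries. The progenitor markers Cd34 and Mpo were high, with Cd34 at 1323 ± 28.8 CPM with both agents and 1314 ± 45.0 CPM with Pam3CSK4 alone, and Mpo, the primary granule peroxidase, at 2269 ± 113 and 2495 ± 61.6 CPM in the same order (SD, n = 4 each).

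IFNg on top of Pam3CSK4 changed 4480 genes (30.1% of those tested), most of them by little. With both agents 2421 genes were higher (16.3% of those tested) and 2059 lower (13.8%) than with Pam3CSK4 alone. The counts of each gene list below stand beside these shares. The median absolute log2 fold change of the called genes was 0.25, and the median of all tested genes was -0.02. At least 2-fold rises numbered 320 (2.15%) and at least 2-fold falls 148 (0.995%). The 4 libraries with both agents all lay above the 4 with Pam3CSK4 alone for 18% of tested genes, and all below them for 15.9%.

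**Figure D1:**
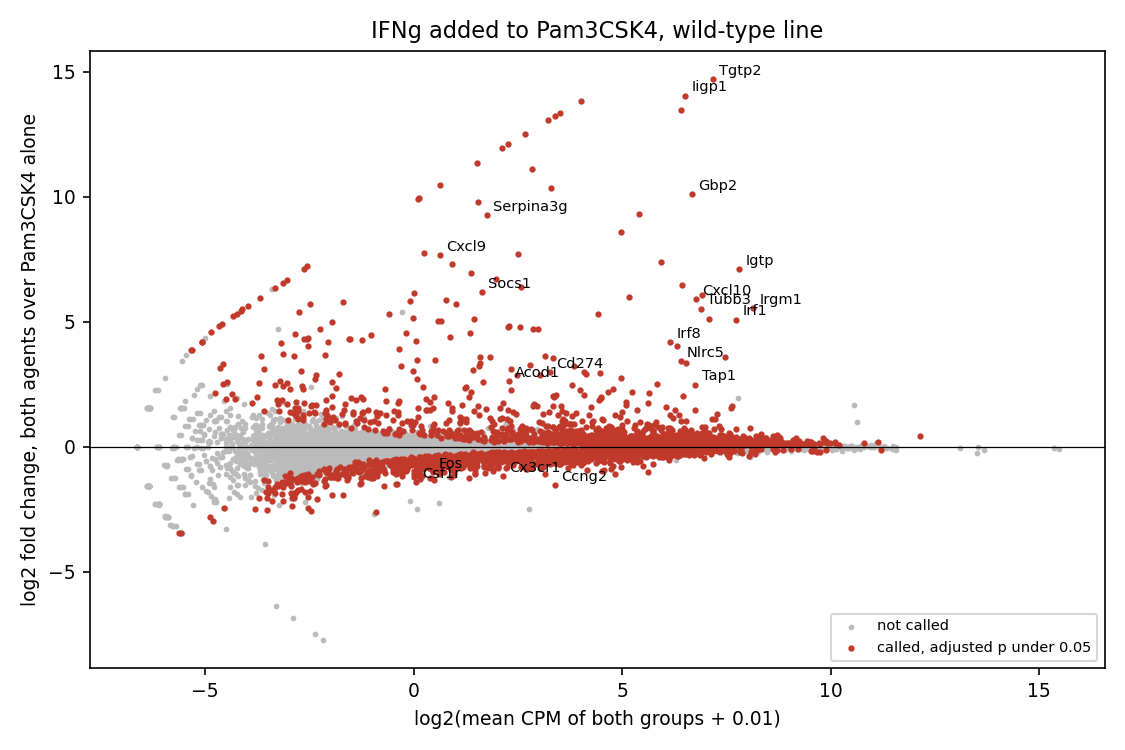
Log2 fold change of each tested gene, both agents over Pam3CSK4 alone (y axis), against its mean level as log2(CPM + 0.01) (x axis); red points are called and grey points are not. The greatest rises, such as Tgtp2 and Gbp2, stand well above any fall. Where either group has few counts, as Tgtp2 has with Pam3CSK4 alone, the fitted folds depend on the small constant the fit adds.

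The receptor and kinase genes themselves moved little. Of 15 genes for interferon receptors, JAKs and STATs, all tested, 5 were higher and 4 lower, with a median log2 fold change of -0.03. Ifngr1, the ligand-binding chain, had 69.9, 74.8, 70.3 and 71.3 CPM with both agents, against 84.3, 79.8, 86.8 and 87.9 CPM with Pam3CSK4 alone. The groups did not overlap, and Ifngr1 was lower by a log2 fold change of -0.24 ± 0.04 (SE; edgeR adjusted p = 1.8e-05). Ifngr2, its partner, was lower by -0.22 ± 0.05 (edgeR adjusted p = 0.0004). Ifnar2, a chain of the type I interferon receptor, was higher by 0.36 ± 0.04 (edgeR adjusted p = 3.9e-09), while Ifnar1 was lower by -0.19 ± 0.03 (edgeR adjusted p = 8.3e-06). Among the STATs, Stat2 was at 34.3 ± 0.990 CPM with both agents against 9.49 ± 0.500 CPM, and Stat3 at 206 ± 4.45 against 95.1 ± 1.31 CPM with Pam3CSK4 alone (SD, n = 4 each). Jak1 and Jak2, the kinases of the receptor, had log2 fold changes of 0.03 and -0.03 and were not called.

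Several feedback inhibitors of the pathway rose. Of 16 such genes, all tested, 8 were higher and 4 lower, with a median of 0.10. Socs1, which blocks JAK activity, had 5.69, 6.39, 6.02 and 6.34 CPM with both agents, against 0.133, 0.0548, 0.0364 and 0.0909 CPM with Pam3CSK4 alone. No library of one group came near the other, and the log2 fold change was 6.19 ± 0.26 (edgeR adjusted p = 2.1e-19). Socs3, which acts on receptors of the gp130 family, rose by 3.26 ± 0.09, Cish by 3.23 ± 0.16, and Usp18, which removes ISG15 from proteins and dampens type I interferon signalling, by 4.80 ± 0.12. Pias3, whose protein inhibits STAT3, was lower by -0.62 ± 0.10, at 2.63 ± 0.299 CPM against 4.05 ± 0.448 CPM (edgeR adjusted p = 4.4e-06).

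Transcription factors that carry the interferon response rose. Of 20 listed regulators 19 were tested, 13 were higher and 1 was lower, with a median of 0.68. Irf1 had 414, 404, 415 and 418 CPM with both agents, against 11.8, 12.5, 12.2 and 12.2 CPM with Pam3CSK4 alone. Within each group its libraries differed by a few percent, and Irf1 was higher by 5.08 ± 0.05 on the log2 scale (edgeR adjusted p = 1.6e-40). Irf8, which in mouse progenitors favours monocyte and dendritic cell fates, had 141, 127, 132 and 137 CPM with both agents and 7.81, 7.23, 7.18 and 7.57 CPM with Pam3CSK4 alone. The groups were far apart, with a log2 fold change of 4.17 ± 0.05 (edgeR adjusted p = 2.5e-36). Irf7 rose by 4.71 ± 0.13 and Irf9, a subunit of the ISGF3 complex, by 2.74 ± 0.06. Batf2, an AP-1 family factor, was at 5.80 ± 0.552 CPM with both agents and had 1 count in all with Pam3CSK4 alone, a ratio of 1341 with a 95% counting interval from 240 to 53010.

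Of the 2 coactivators of antigen presentation, Nlrc5 rose and Ciita was near the limit of detection. Nlrc5, the coactivator of MHC class I genes, had 160, 148, 151 and 158 CPM with both agents, against 13.8, 14.6, 14.8 and 14.8 CPM with Pam3CSK4 alone. Its log2 fold change was 3.41 ± 0.05 (edgeR adjusted p = 1.2e-33), and the groups did not overlap. Ciita, the coactivator of MHC class II genes, was barely detected: 0, 0.0685, 0.0145 and 0.0388 CPM with both agents and 0.208, 0.110, 0.0909 and 0.0909 CPM with Pam3CSK4 alone. Its 7 counts against 30 give a ratio of 0.229 (95% counting interval 0.0848 to 0.532) and a log2 fold change of -2.03 ± 0.62 (edgeR adjusted p = 0.012), and without library 1 of Pam3CSK4 alone, the highest of its group, the call was lost (log2 fold change -1.64, adjusted p = 0.0778).

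Genes for 2 families of interferon-induced GTPases had the highest medians of the 31 lists. All 10 tested of 11 guanylate-binding protein genes were higher, against 16.3% of all tested genes. The median log2 fold change was 6.21, or 5.94 with the 3 genes at 0 in a group set at their bound. Those 3 had no count with Pam3CSK4 alone and passed the low-count filter through other groups, so the filter itself favoured rises. The same holds for members of other lists at 0 with Pam3CSK4 alone. Guanylate-binding proteins assemble on the vacuoles and membranes of intracellular pathogens. Gbp2 had 219, 189, 193 and 220 CPM with both agents, against 0.311, 0.110, 0.164 and 0.127 CPM with Pam3CSK4 alone. The lowest library with both agents was far above the highest without IFNg, at a log2 fold change of 10.10 ± 0.16 (edgeR adjusted p = 3.2e-27). Gbp7 was at 239 ± 14.9 CPM against 3.58 ± 0.280 CPM and Gbp3 at 42.1 ± 2.81 against 1.06 ± 0.147 CPM (SD, n = 4 each). Several genes of this family are close copies of each other, so expected counts may be shared among them.

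Of 17 immunity-related GTPase genes, which act on pathogen vacuoles, 16 were tested, 15 were higher and 1 was lower, with a median of 7.26. Among the 16, 4 had no count with Pam3CSK4 alone and likewise passed the filter through other groups. Irgm1, a regulator of the family, had 553, 535, 542 and 575 CPM with both agents, against 11.97, 12.5, 11.998 and 10.6 CPM with Pam3CSK4 alone. Igtp had 436, 431, 442 and 463 CPM with both agents and 2.97, 3.54, 2.64 and 3.60 CPM with Pam3CSK4 alone. For both genes the groups were well separated, with log2 fold changes of 5.55 ± 0.05 and 7.12 ± 0.07 (edgeR adjusted p = 4.9e-41 and 1.6e-40). Tgtp2 had 305, 284, 272 and 301 CPM with both agents and 2 counts in all with Pam3CSK4 alone, a ratio of 33590 (95% counting interval 9299 to 277400), but Tgtp1 is a near copy of it and counts may be split between them. Irgq, an atypical member, was the one that was lower, at 8.47 ± 0.273 CPM against 11.4 ± 0.580 CPM (log2 fold change -0.43 ± 0.08, edgeR adjusted p = 4e-05).

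Antiviral effectors and sensors of foreign nucleic acid rose broadly. Of 44 antiviral genes 37 were tested, 33 were higher and none lower, with a median of 2.04. Oasl2, a 2'-5' oligoadenylate synthetase-like gene, was at 11.8 ± 0.876 CPM with both agents and 0.136 ± 0.0792 CPM with Pam3CSK4 alone. Parp14, an ADP-ribosyltransferase, was at 150 ± 7.99 against 9.12 ± 0.610 CPM, and Ifitm3, which blocks viral fusion, at 114 ± 10.2 against 55.8 ± 3.31 CPM. Ifit2 stayed uncalled, with a log2 fold change of 0.01 ± 0.09, and so did Ifitm2, with 0.04 ± 0.04. Of 16 sensor genes 15 were tested, 12 were higher and 1 was lower, with a median of 1.94. Zbp1, a sensor of Z-form nucleic acid that can start necroptosis, had 9.84, 7.56, 8.67 and 8.59 CPM with both agents and no count in the 4 libraries with Pam3CSK4 alone. Against a floor of 3 counts over the group it was at least 671-fold higher. The RNA sensors Ddx58 and Ifih1 rose by 2.26 ± 0.06 and 1.99 ± 0.07 on the log2 scale, and the DNA sensor Aim2 was not called, with -0.04 ± 0.08.

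Genes of class I antigen presentation rose. All 24 genes were tested, 19 were higher and none lower, with a median of 0.76. Tap1, which pumps peptides into the endoplasmic reticulum, had 188, 172, 189 and 184 CPM with both agents, against 32.4, 31.01, 33.2 and 34.1 CPM with Pam3CSK4 alone. The groups did not overlap and Tap1 rose by 2.49 ± 0.04 (edgeR adjusted p = 5.3e-32). Psmb9, an immunoproteasome subunit, rose by 1.40 ± 0.06, the non-classical H2-T23 by 1.98 ± 0.05 and B2m, the light chain, by 0.50 ± 0.04. The classical heavy chains H2-K1 and H2-D1 rose by 0.15 ± 0.03 each, at 216 ± 4.75 CPM with both agents against 194 ± 3.35 CPM for H2-K1 and at 165 ± 5.34 against 148 ± 3.86 CPM for H2-D1 (SD, n = 4 each). Class I heavy chain genes are polymorphic and similar in sequence, so their counts may be partly shared.

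Class II antigen presentation did not follow. Of 12 genes 10 were tested, 1 was higher and none lower, with a median of -0.14. The one was Ctss, a lysosomal protease that trims the invariant chain, at 0.501 ± 0.187 CPM against 0.246 ± 0.0772 CPM, with groups that overlapped. Cd74, the invariant chain, was at 0.415 ± 0.170 CPM with both agents and 0.456 ± 0.0919 CPM with Pam3CSK4 alone, and H2-Ab1 at 0.578 ± 0.0629 and 0.649 ± 0.155 CPM. Neither was called.

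Of 21 chemokine genes 13 were tested, 6 were higher and none lower, with a median of 0.87, or 0.90 with the 1 gene at 0 in a group set at its bound. Cxcl10, a ligand of CXCR3 that draws T cells, had 215, 210, 218 and 221 CPM with both agents, against 3.78, 3.85, 3.54 and 3.06 CPM with Pam3CSK4 alone. Its libraries agreed closely within each group, and the log2 fold change was 5.92 ± 0.08 (edgeR adjusted p = 5.3e-32). Cxcl9, another ligand of CXCR3, was at 3.06 ± 0.241 CPM with both agents and had 3 counts in all with Pam3CSK4 alone, a ratio of 236 (95% counting interval 80.3 to 1145). Ccl3, which draws monocytes, rose by 0.92 ± 0.06, and Ccl9, at 491 ± 22.5 CPM against 514 ± 17.8 CPM, was not called.

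Among cytokine genes 18 of 28 were tested, 8 were higher and 1 was lower, with a median of 0.34. Tnf, which Pam3CSK4 also induces through NF-kB in many cells, had 32.6, 34.7, 33.9 and 33.5 CPM with both agents, against 19.2, 19.1, 21.2 and 19.2 CPM with Pam3CSK4 alone. The groups did not overlap, and Tnf was higher by 0.78 ± 0.05 (edgeR adjusted p = 5.2e-16). Osm, a cytokine of the gp130 family, rose by 1.36 ± 0.06, Csf1, the macrophage growth factor, by 1.26 ± 0.09 and Tnfsf10, the death ligand TRAIL, by 3.59 ± 0.12. Il15, which sustains NK cells, was the one that was lower, at 5.92 ± 0.258 CPM against 9.65 ± 0.302 CPM (log2 fold change -0.71 ± 0.07, edgeR adjusted p = 1.6e-10).

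**Figure D2:**
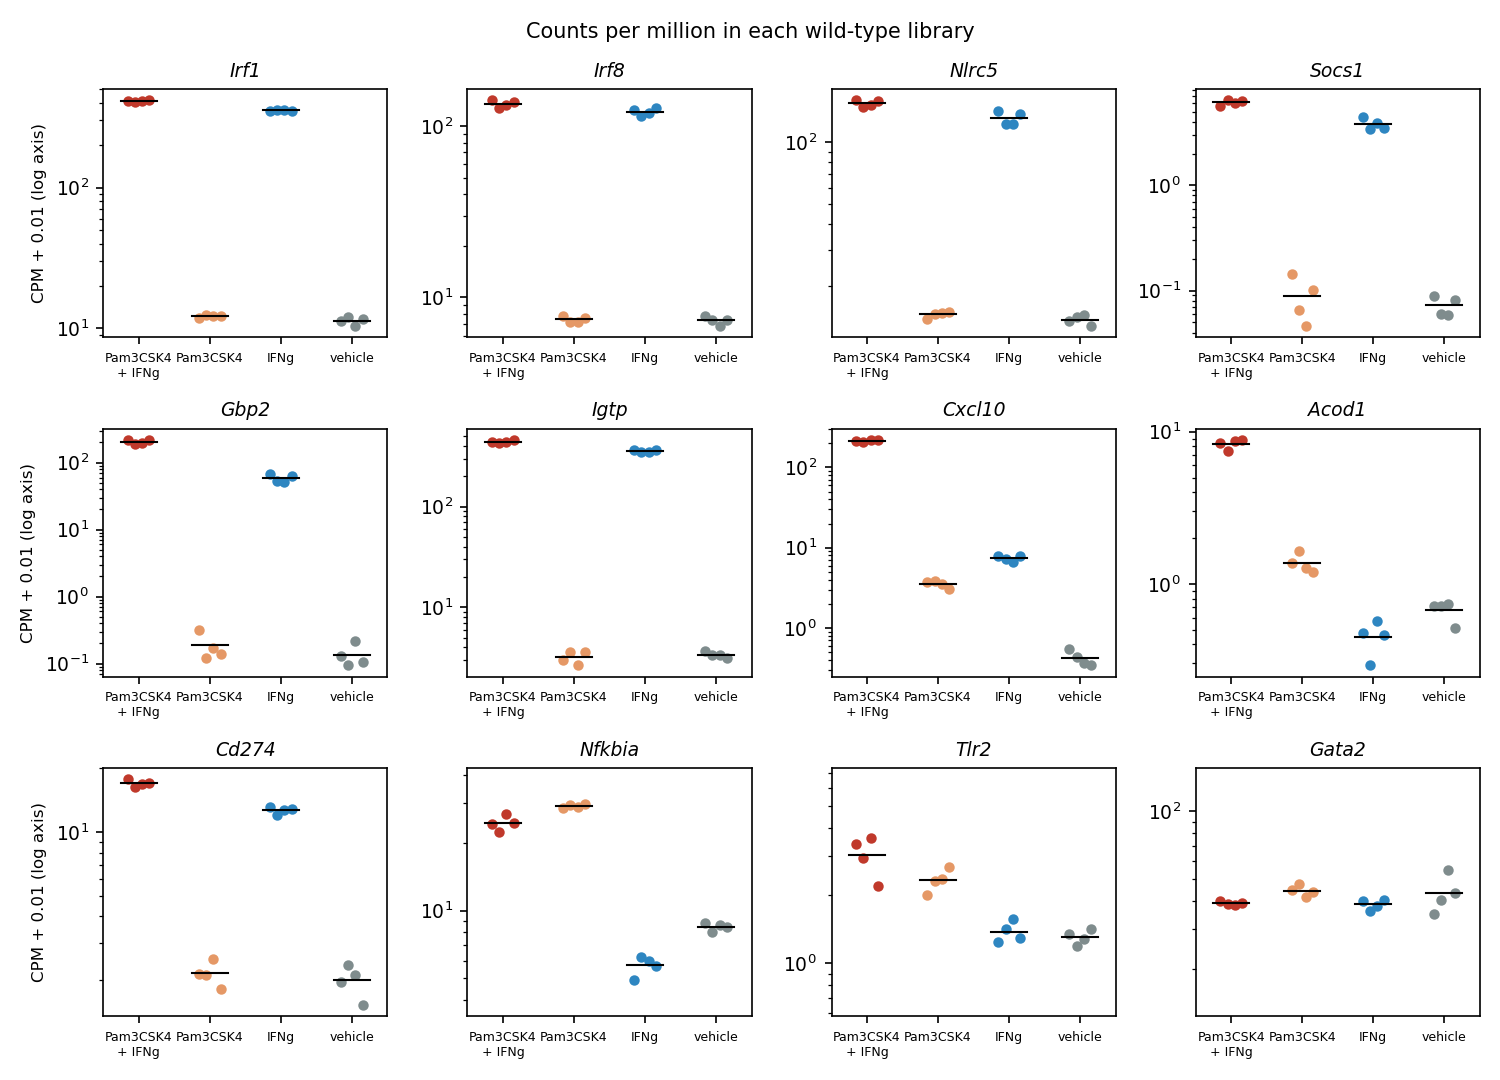
CPM + 0.01 on log axes for 12 genes in each wild-type library; points are libraries, horizontal bars are means of 4, and treatments run from both agents to vehicle. Cxcl10 and Acod1 stand highest with both agents, Irf1 and Igtp are near the same height with both agents and with IFNg alone, and Nfkbia is lower with both agents than with Pam3CSK4 alone.

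Genes of the machinery that Pam3CSK4 itself uses were called in both directions, with falls near the share of all tested genes. Of 30 genes of the Toll-like receptor pathway 26 were tested, with a median of 0.06. Of these, 9 were higher and 4 lower, beside 16.3% and 13.8% of all tested genes. Tlr2, the receptor of Pam3CSK4, had 3.39, 2.93, 3.59 and 2.19 CPM with both agents, against 2.00, 2.30, 2.35 and 2.66 CPM with Pam3CSK4 alone. The groups overlapped, and its log2 fold change of 0.39 ± 0.11 (edgeR adjusted p = 0.0075) was 0.30 without library 3 of both agents, where the call was lost (adjusted p = 0.0591). Tlr1, the partner for triacylated lipopeptides, was near the limit of detection at 0.0949 ± 0.0434 and 0.124 ± 0.0782 CPM, and Tlr6, the partner for diacylated ones, rose by 0.92 ± 0.12. The adaptor Myd88 rose by 0.62 ± 0.04, at 49.5 ± 2.59 CPM against 32.1 ± 0.942 CPM, and the kinase Irak2 by 0.65 ± 0.09. Irak3, an inhibitor of the same complex, was lower by -0.39 ± 0.05, at 18.7 ± 0.400 CPM against 24.6 ± 0.652 CPM (edgeR adjusted p = 4.5e-08). Cd14, a co-receptor, was at 4.32 ± 0.239 against 5.20 ± 0.442 CPM, and its call (edgeR adjusted p = 0.045) was lost under 10 of 15 alternative settings.

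NF-kB genes as a group lay near the median of all genes. All 25 were tested, with a median of -0.04 beside -0.02 over all tested genes. Of these, 4 were higher and 6 lower, beside 16.3% and 13.8% of all tested genes. Nfkbia, the inhibitor that NF-kB induces to end its own activity, had 24.1, 22.4, 26.8 and 24.4 CPM with both agents, against 28.5, 29.5, 28.7 and 29.6 CPM with Pam3CSK4 alone. Every library with both agents was below every one with Pam3CSK4 alone, at a log2 fold change of -0.25 ± 0.06 (edgeR adjusted p = 0.0011). The deubiquitinating enzyme gene Tnfaip3 was lower by -0.22 ± 0.06, its partner Tnip1 by -0.49 ± 0.05 and the kinase gene Ikbke by -0.47 ± 0.05. Bcl3, an atypical IkB protein, rose by 1.92 ± 0.23 at a low level, 1.93 ± 0.339 CPM against 0.513 ± 0.111 CPM. The subunits Nfkb1, Nfkb2 and Relb had log2 fold changes of -0.03, -0.02 and -0.17 and were not called, although Relb was in an edgeR fit of the 8 libraries alone (adjusted p = 0.0432).

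Genes that Pam3CSK4 raised in the mutant line give a list of Pam3CSK4 targets whose group means use none of these 8 libraries. The list came from the same fit of all 32 libraries, so filter, scaling and estimate of spread were shared. Of 213 genes (1.43% of those tested) raised at least 2-fold by Pam3CSK4 there, 51 were higher and 46 lower when IFNg was added in wild-type cells (23.9% and 21.6%, beside 16.3% and 13.8% of all tested genes), with a median of -0.06. The 42 that IFNg alone also raised at least 2-fold in the mutant line had 33 higher and none lower, with a median of 1.75. The 126 that were not called with IFNg in the mutant line had 6 higher and 25 lower (4.76% and 19.8%), with a median of -0.22. Of 335 genes (2.25%) raised at least 2-fold by IFNg in the mutant line, 267 were higher and 1 was lower, with a median of 1.90, and of 125 (0.841%) lowered there, 52 were lower and none higher.

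**Figure D3:**
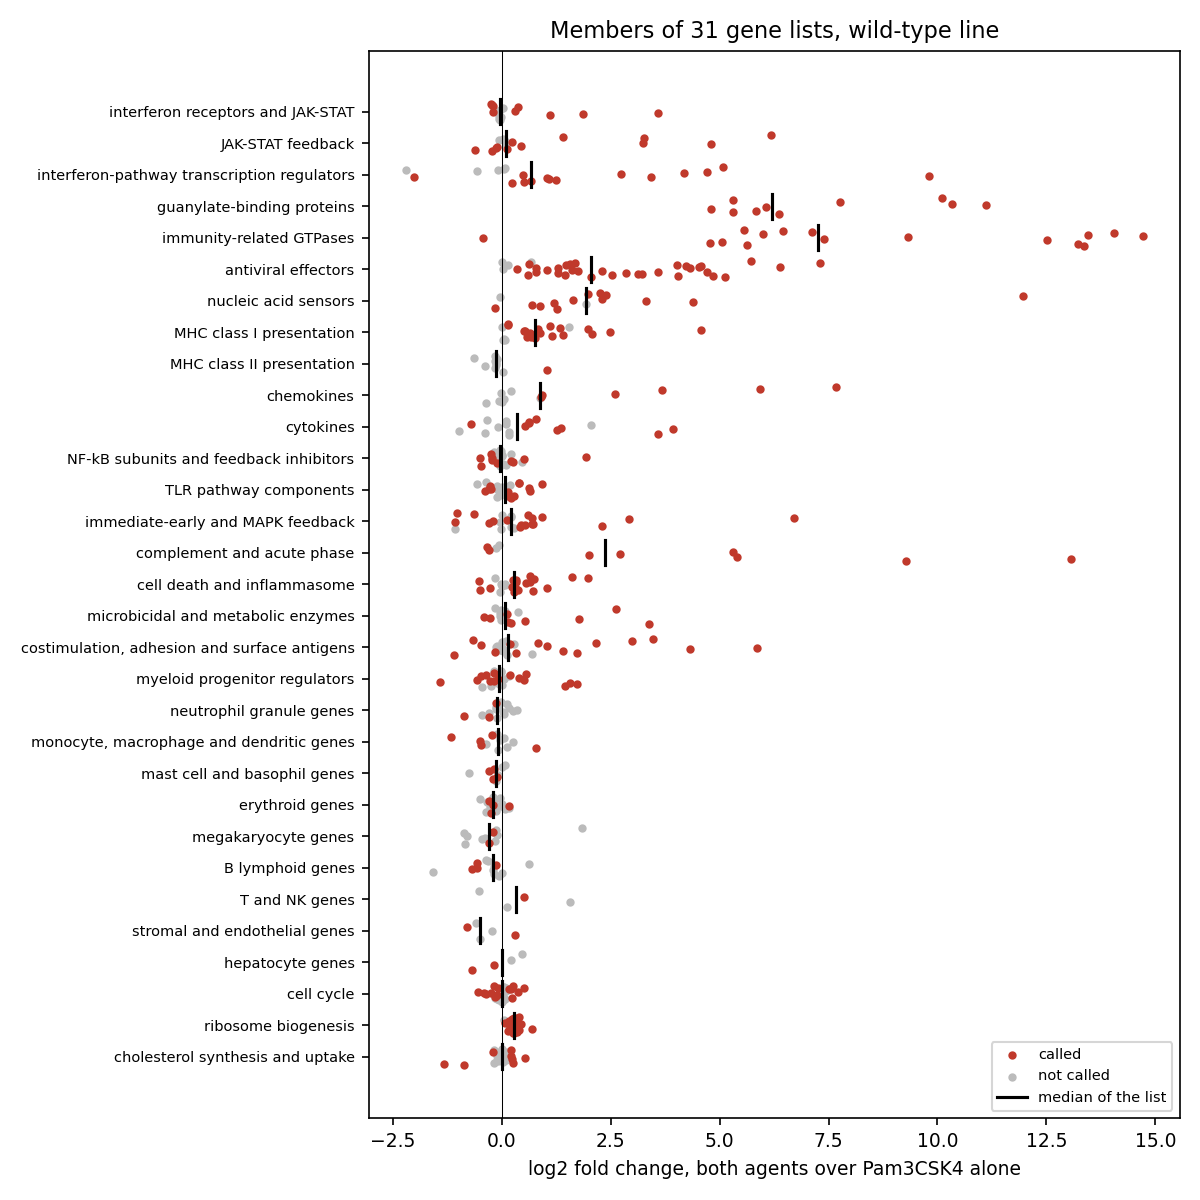
Log2 fold change, both agents over Pam3CSK4 alone, of the tested members of 31 gene lists (one per row); red points are called, grey points are not, and black bars are medians. Guanylate-binding and immunity-related GTPase genes lie furthest to the right, while the NF-kB, class II and lineage lists lie around 0.

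Immediate-early genes split. Of 28 such genes and MAP kinase feedback genes 26 were tested, with a median of 0.22. Of these, 12 were higher and 5 lower, beside 16.3% and 13.8% of all tested genes. Egr2, an early growth response factor, had 30.3, 29.4, 32.7 and 30.9 CPM with both agents, against 4.15, 4.29, 3.51 and 4.24 CPM with Pam3CSK4 alone, and rose by 2.93 ± 0.09 (edgeR adjusted p = 1.2e-24). Atf3, a stress-induced repressor, was at 7.81 ± 1.03 CPM against 0.0706 ± 0.0353 CPM, and Zfp36, which destabilises inflammatory mRNAs, at 8.31 ± 0.214 against 1.70 ± 0.0701 CPM. Fos, a subunit of AP-1, was lower, at 0.980, 0.908, 0.872 and 0.853 CPM with both agents against 2.27, 1.63, 1.38 and 2.04 CPM with Pam3CSK4 alone. The groups did not overlap, and the log2 fold change of Fos was -1.02 ± 0.16 (edgeR adjusted p = 5.6e-06). Dusp1, a phosphatase that switches off MAP kinases, was lower by -1.07 ± 0.14.

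Effector enzymes and surface proteins of activated myeloid cells rose in part. Among 27 microbicidal and metabolic enzyme genes 17 were tested, with a median of 0.07. Of these, 7 were higher and 2 lower, beside 16.3% and 13.8% of all tested genes. Acod1 had 8.38, 7.42, 8.71 and 8.84 CPM with both agents, against 1.36, 1.63, 1.25 and 1.18 CPM with Pam3CSK4 alone. The groups were well apart, at a log2 fold change of 2.62 ± 0.11 (edgeR adjusted p = 1.8e-20). Ptgs2, the inducible prostaglandin synthase, rose by 1.78 ± 0.06, and Pim1, a kinase induced by cytokines, by 3.37 ± 0.05, at 169 ± 4.52 CPM against 16.4 ± 0.292 CPM. Nox1, an NADPH oxidase gene, was at 3.74 ± 0.435 against 5.01 ± 0.109 CPM (log2 fold change -0.42 ± 0.14, edgeR adjusted p = 0.021) and lost the call without library 3 of both agents (adjusted p = 0.0926).

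Of 30 genes for costimulation, adhesion and surface antigens 26 were tested, with a median of 0.15. Of these, 11 were higher and 4 lower, beside 16.3% and 13.8% of all tested genes. Cd274, the checkpoint ligand PD-L1, had 17.7, 16.2, 16.9 and 17.1 CPM with both agents, against 2.14, 2.12, 2.51 and 1.82 CPM with Pam3CSK4 alone. It rose by 2.98 ± 0.09 with no overlap (edgeR adjusted p = 1.2e-24). Icam1, an adhesion receptor, rose by 2.17 ± 0.05, Cd40 by 3.46 ± 0.18, and Ly6a, which encodes the stem cell antigen Sca-1, by 5.86 ± 0.24, at 3.37 ± 0.214 CPM against 0.0541 ± 0.0248 CPM. Fcgr1, the high-affinity IgG receptor, rose by 1.40 ± 0.10.

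Of 22 complement and acute-phase genes 10 were tested, 6 were higher and 2 lower, with a median of 2.36. Serpina3f and Serpina3g encode serine protease inhibitors and are close copies of each other. Serpina3f was at 18.7 ± 1.68 CPM with both agents and had no count with Pam3CSK4 alone, which makes it at least 1440-fold higher against a floor of 3 counts over the group. Hp and C3 were lower, by -0.35 ± 0.06 and -0.29 ± 0.07. Saa3, an acute-phase gene at 8.03 ± 0.491 CPM with both agents and 8.34 ± 0.555 CPM with Pam3CSK4 alone, was not called.

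Of 27 genes for cell death and inflammasomes 25 were tested, with a median of 0.27. Of these, 16 were higher and 3 lower, beside 16.3% and 13.8% of all tested genes. Casp1, the inflammasome protease, was at 10.9 ± 0.560 CPM with both agents against 3.56 ± 0.211 CPM, and Casp4, which senses cytosolic lipopolysaccharide, at 3.96 ± 0.186 against 1.01 ± 0.0670 CPM. The survival gene Bcl2l1 rose as well, by 1.03 ± 0.05, as did the necroptosis executor Mlkl, by 0.64 ± 0.04. Fas, a death receptor, was at 1.67 ± 0.386 against 1.05 ± 0.237 CPM with overlapping groups, and its call (edgeR adjusted p = 0.018) was lost without library 1 or 4 of both agents, or library 2 of Pam3CSK4 alone (0.0609, 0.0765 and 0.0855).

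Progenitor regulators changed by smaller amounts, in both directions. All 30 were tested, with a median of -0.06, and 7 were higher and 8 lower, beside 16.3% and 13.8% of all tested genes. Csf2rb, the shared beta chain of the IL-3, IL-5 and GM-CSF receptors, had 300, 276, 291 and 307 CPM with both agents, against 98.8, 98.4, 99.7 and 101 CPM with Pam3CSK4 alone, a rise of 1.56 ± 0.05 (edgeR adjusted p = 2.4e-25). Its neighbour and paralogue Csf2rb2 rose by 1.73 ± 0.13, and counts may be shared between them. Kit, the stem cell factor receptor, had 263, 264, 264 and 266 CPM with both agents, against 324, 323, 315 and 321 CPM with Pam3CSK4 alone. The groups did not overlap, and Kit was lower by -0.28 ± 0.04 (edgeR adjusted p = 1.9e-06). Meis1, a homeobox factor of stem and progenitor cells, was lower by -0.57 ± 0.04, Gfi1b by -0.47 ± 0.07, Cebpa by -0.18 ± 0.05 and Flt3 by -0.19 ± 0.04. Csf1r, the receptor of CSF1, was lower by -1.42 ± 0.20 at 0.557 ± 0.0891 CPM against 1.498 ± 0.244 CPM.

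Gata2, the gene whose -77 enhancer the mutant line lacks, had 39.9, 38.7, 38.6 and 39.3 CPM with both agents, against 44.5, 47.8, 41.7 and 43.7 CPM with Pam3CSK4 alone. The groups did not overlap, but the log2 fold change of -0.18 ± 0.09 was not called (edgeR adjusted p = 0.11). In an edgeR fit of these 8 libraries alone it was called, with an adjusted p of 0.000249. In the mutant line Gata2 was at 6.98 CPM with both agents and 7.57 CPM with Pam3CSK4 alone, means of 4 libraries.

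Among called genes of at least 5 CPM in either group whose groups did not overlap, the falls were smaller than the greatest rises. The first of them by size, Ccng2, a cyclin associated with quiescence, had 5.19, 5.40, 5.76 and 5.08 CPM with both agents, against 16.6, 14.6, 15.5 and 15.6 CPM with Pam3CSK4 alone. It was lower by -1.54 ± 0.06 (edgeR adjusted p = 3e-21), with no overlap. Cx3cr1, the fractalkine receptor, was lower by -1.16 ± 0.12, Depp1 by -1.09 ± 0.05, Hbp1, a repressor of the cell cycle, by -1.08 ± 0.07 and Klhl24 by -1.02 ± 0.05. The cholesterol list holds synthesis, uptake and export genes, and its 24 tested genes had a median of 0.01. Of these, 5 were higher and 3 lower, beside 16.3% and 13.8% of all tested genes. The 3 were the exporters Abca1 and Abcg1, lower by -1.33 ± 0.15 and -0.87 ± 0.07, and Mvd, an enzyme of the mevalonate pathway, lower by -0.21 ± 0.06.

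Ribosome biogenesis genes rose together by a small amount. All 29 were tested, 27 were higher and none lower, with a median of 0.27. Noc4l, which takes part in small subunit assembly, was at 113 ± 4.11 CPM with both agents and 69.9 ± 2.28 CPM with Pam3CSK4 alone, and Nop2, an rRNA methyltransferase, at 240 ± 11.6 and 184 ± 3.36 CPM. Npm1 and Fbl were the members not called, with log2 fold changes of 0.15 and 0.04. Npm1 was called in the fit of the 8 libraries alone (edgeR adjusted p = 0.000218) and in a fit adding structural RNA as covariate (0.0333). Of 38 cell cycle genes 6 were higher and 9 lower, with a median of 0.00, beside 16.3% and 13.8% of all tested genes. Ccnd2, a G1 cyclin, rose by 0.51 ± 0.04, and Cdkn1b, a brake on G1, was lower by -0.56 ± 0.05.

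Markers of other cell types were checked because the lines were made from fetal liver. Sums of levels cover tested members only. Over the 17 tested of 22 neutrophil granule genes the sum was 3010 to 3262 CPM with both agents and 3363 to 3470 CPM with Pam3CSK4 alone, most of it Mpo. Over the 12 tested of 26 monocyte, macrophage and dendritic genes it was 337 to 358 and 313 to 331 CPM in the same order. Bst2, an interferon-induced member of that second list, was at 73.6 ± 3.66 CPM with both agents and 42.5 ± 1.18 CPM with Pam3CSK4 alone, and the list's other called members, Cx3cr1, Lyz2, Itgax and Cd68, were lower. Erythroid, mast cell, megakaryocyte and B lymphoid sums were all lower with both agents, with no overlap between the groups in any of them. The fall of the erythroid sum rested on Car2, which made up most of it (189860 against 214756 counts, a ratio of 0.867). Tfrc, the 1 erythroid gene called higher beside 3 called lower, had 122266 against 106971 counts, a ratio of 1.12. The T and NK sum, over 4 tested of 21 genes, was higher, at 12.6 to 14.2 against 10.1 to 11.8 CPM. Lck, the 1 gene of that list that was called, had 1214 against 831 counts, a ratio of 1.43. The stromal and endothelial sum was 24.2 to 28.6 against 39.4 to 45.3 CPM, with 10 of 17 members at 0 in each group. Most of it was Pdgfrb (22.9 ± 1.58 against 39.7 ± 2.70 CPM). The hepatocyte sum, over 4 tested of 15 genes, was 19.3 to 21.2 against 22.2 to 23.8 CPM. Most of that was Trf (4523 against 5004 counts, a ratio of 0.886). Within single lists 0 to 4 members were called in either direction. In bulk RNA, fewer cells of a type cannot be told apart from less RNA per cell, and the part of these shifts in the changes above was not tested.

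Whether the effect of IFNg differed with Pam3CSK4 present was tested as the difference of the IFNg effects with and without Pam3CSK4 in wild-type cells, which share no library. This difference was called for 88 genes (0.592%), 51 of them positive (0.343%), meaning a higher log2 effect with Pam3CSK4, and 37 negative (0.249%). Acod1 differed most among the named genes: IFNg raised it by 2.62 with Pam3CSK4, but without Pam3CSK4 its effect was -0.59, at 0.440 CPM with IFNg alone against 0.660 CPM with vehicle. The difference was 3.21 ± 0.21 (edgeR adjusted p = 2.5e-12). Cxcl10 rose by 5.92 with Pam3CSK4 and by 4.16 without it, at 7.37 CPM with IFNg alone against 0.410 CPM with vehicle, and the difference was 1.76 ± 0.20 (edgeR adjusted p = 6.2e-06). Combined treatment left Cxcl10 at 216 CPM, beside 3.56 CPM with Pam3CSK4, 7.37 CPM with IFNg and 0.410 CPM with vehicle, means of 4 libraries. Ifi47, an immunity-related GTPase, differed by 1.01 ± 0.15 and Tubb3, a beta-tubulin, by 0.67 ± 0.10 (edgeR adjusted p = 0.00051 each).

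Of the MHC class I genes 10 of 24 had a called difference. Tap1 differed by 0.29 ± 0.06, H2-T23 by 0.55 ± 0.07, Psmb9 by 0.47 ± 0.08 and Psmb8, the other inducible subunit named here, by 0.29 ± 0.04, each with the greater rise in the presence of Pam3CSK4. Psmb8 and Bst2, a tetherin gene with a difference of 0.54 ± 0.09, were named after their values were seen. Among the negative differences, Gpr12, a G protein-coupled receptor gene, was lower by -0.49 with IFNg in the presence of Pam3CSK4 and was at 9.97 CPM with IFNg alone against 9.66 CPM with vehicle, a difference of -0.54 ± 0.07 (edgeR adjusted p = 1.5e-05). Irf1, Irf8, Nlrc5 and Socs1 had differences of 0.12, 0.12, 0.15 and 0.28 that were not called. Cxcl9 was at 3.06 CPM with both agents, 0.0137 CPM with Pam3CSK4, 0.0561 CPM with IFNg and 0 with vehicle, and with a group at 0 its difference could not be estimated with useful precision (edgeR adjusted p = 0.91).

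Of the 468 genes changed at least 2-fold by IFNg on top of Pam3CSK4, 309 were called in the same direction with IFNg alone, which called 35.4% of all tested genes, 157 were not called there and 2 were called in the opposite direction, and the difference was called for 37. The count of 88 rested on single libraries. It was 1156 without vehicle library 3, 461 without vehicle library 2, 45 without vehicle library 1 and 44 without vehicle library 4. It was 44 and 51 without libraries 1 and 3 of both agents, 47 and 53 without libraries 1 and 4 of Pam3CSK4 alone, and 51 without library 2 of IFNg alone. Vehicle libraries 1 to 4 had structural RNA shares of 25.8, 19.4, 21.9 and 28.8%. With the share as a covariate 42 genes were called, and without vehicle libraries 1 and 4, an alternative chosen after seeing the data, 20. Called in the fit of all libraries and in all 24 alternatives were 16 genes, among them Acod1, Cxcl10, Ifi47, Tubb3, Gpr12, Mpeg1, Bst2, Ptgs2, Tap1, H2-T23, Psmb8 and Psmb9.

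**Figure D4:**
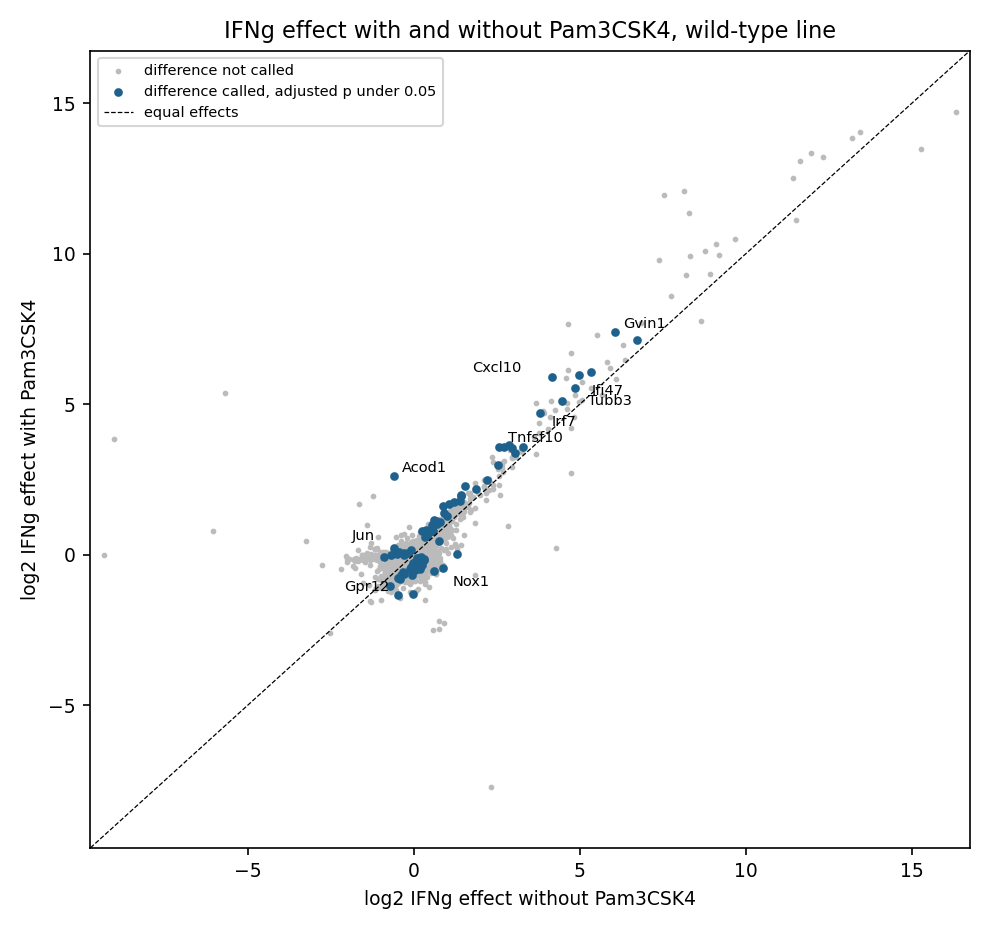
Log2 effect of IFNg with Pam3CSK4 (y axis) against its log2 effect without Pam3CSK4 (x axis) in wild-type cells, for 11244 genes of at least 1 CPM in one of the 4 groups; blue points have a called difference and the dashed line marks equal effects. Acod1 stands apart, near -0.59 on the x axis and 2.62 on the y axis, and Cxcl10, Gvin1 and Ifi47 lie above the line.

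The same addition of IFNg to Pam3CSK4 in the mutant line called 4301 genes (28.9%), and the 2 lines share no library. Of the 468 genes changed at least 2-fold in wild-type cells, 339 were called in the same direction in mutant cells, 128 were not called and 1 was called in the opposite direction. The difference between the lines, wild-type minus mutant, was called for 274 genes (1.84%), 72 positive (0.484%) and 202 negative (1.36%). By sign alone, whether or not either effect was called, the effects in the 2 lines were opposite for 97 of the 274. Among the 202 negative differences, 81 were of genes not called in wild-type cells. With a filter of at least 1 CPM in 4 libraries, which tests fewer genes, the split was 122 positive and 135 negative. Structural RNA took 13.6% and 14.8% of wild-type counts and 22.96% and 27.3% of mutant counts with both agents and with Pam3CSK4 alone, group means. With the share as a covariate 281 genes were called. The fit has 1 mean per group, so the covariate follows only scatter within groups. The part of structural RNA in the difference between lines was not tested.

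Of the 72 positive differences, 61 were of genes with a higher mean level in mutant than in wild-type cells under Pam3CSK4 alone, a level that enters the difference itself. The same held for 56 of the 202 negative differences and for 7222 of all 14869 tested genes. Nlrc5 rose by 3.41 in wild-type cells and by 1.84 in mutant cells, where it was at 264 CPM with both agents and 73.8 CPM with Pam3CSK4 alone, and the difference was 1.58 ± 0.07 (edgeR adjusted p = 5.5e-18). Mpeg1, the pore-forming perforin-2, rose by 2.99 in wild-type and 1.36 in mutant cells, a difference of 1.63 ± 0.07 (edgeR adjusted p = 1.1e-17). Trim30a, Ifi47, Irf7 and Gbp7 differed by 1.53, 1.52, 1.52 and 1.28, and Irf8 by 0.73 ± 0.07. Irf1 rose by 5.08 in wild-type and 5.03 in mutant cells and Cxcl10 by 5.92 and 5.67, and neither difference was called.

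Negative differences included genes that rose less, or fell, in wild-type cells. Csf1 rose by 1.26 in wild-type and 2.75 in mutant cells, a difference of -1.49 ± 0.14 (edgeR adjusted p = 3.1e-09), with 15.6 and 6.51 CPM in wild-type cells and 10.8 and 1.61 CPM in mutant cells, both agents before Pam3CSK4 alone. Klf6, a zinc finger factor, changed by -0.02 in wild-type cells and by 1.24 in mutant cells, a difference of -1.25 ± 0.11 (edgeR adjusted p = 1.7e-09). Il15 fell in wild-type cells and rose in mutant cells, with effects of -0.71 and 0.44 and a difference of -1.15 ± 0.10 (edgeR adjusted p = 6.5e-10). Fos had effects of -1.02 in wild-type and 0.89 in mutant cells, a difference of -1.91 ± 0.23 (edgeR adjusted p = 1.1e-06). Tubb3, Cd274 and Pstpip2 rose in both lines, with differences of -0.83, -0.75 and -1.02. Without library 1 of mutant cells with both agents 168 genes had a called difference, without library 2 of wild-type cells with both agents 176, and without library 4 of wild-type cells with Pam3CSK4 alone 178.

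**Figure D5:**
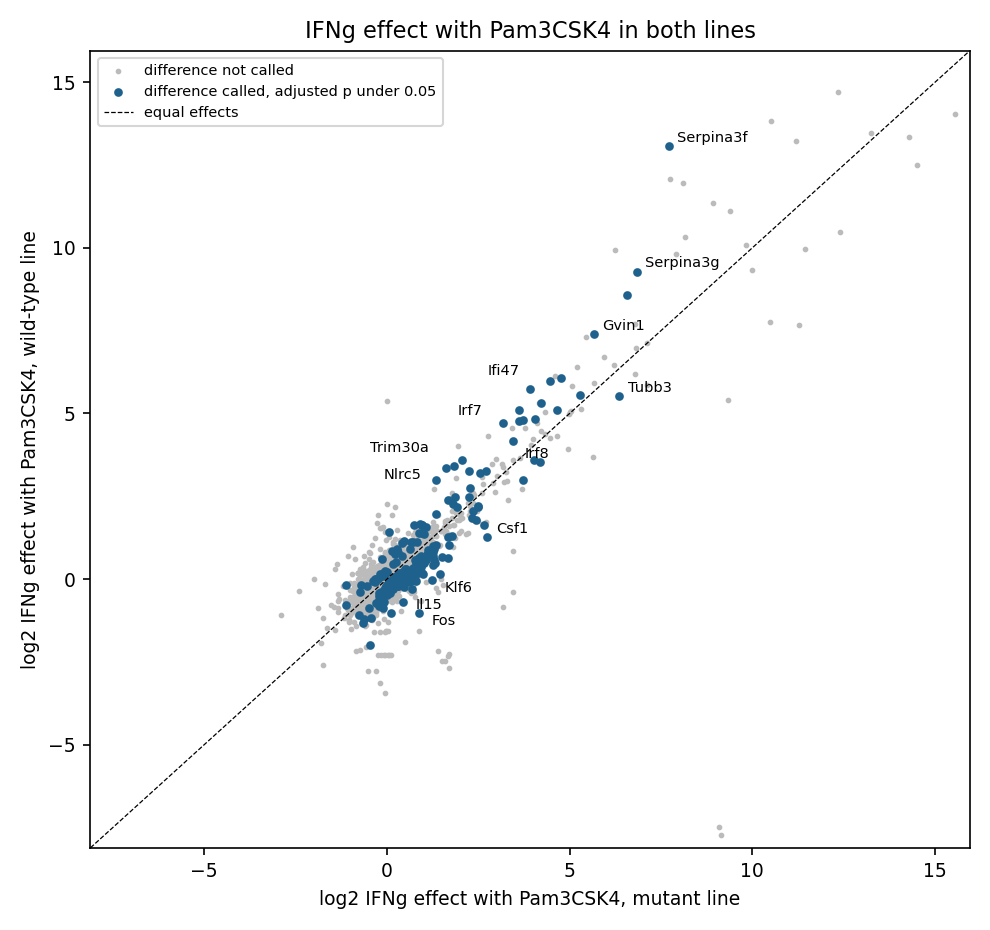
Log2 effect of IFNg with Pam3CSK4 present in the wild-type line (y axis) against the mutant line (x axis), for 11625 genes of at least 1 CPM in one of the 4 groups; blue points have a called difference and the dashed line marks equal effects. Serpina3f and Nlrc5 lie above the line, and Csf1, Klf6, Il15 and Fos below it.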

How the data were processed

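Total RNA libraries, depleted of ribosomal RNA, were sequenced from wild-type and mutant progenitor lines. Reads were processed with STAR 2.5.2b and RSEM 1.3.0 against mm10, per the submitters' processing notes. As to annotation release and read trimming, the sources used here give neither. The deposited files hold RSEM expected counts per gene, per the file headers, and were rounded to whole numbers here. Of 55487 identifiers 55394 matched GENCODE vM21 without their version number. Groups were read from the library titles.

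Counts were scaled by TMM and tested with edgeR 4.0.16 (quasi-likelihood, robust, 1 mean per group, 24 residual degrees of freedom) on all 32 libraries after filterByExpr, which removed 40618 genes. Genes were called at a Benjamini-Hochberg adjusted p under 0.05. Fold changes are both agents over Pam3CSK4 alone, with their SE. Counting intervals and floors cover counting error only, at 95% confidence and 3 counts over a group. Reads carry no molecular identifiers.

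The fit was tested on simulated counts: for both agents against Pam3CSK4 alone it recovered 72% of genes changed 1.5-fold, 92% at 2-fold, 100% at 4-fold and 98% at 8-fold, with 5 false calls among 14302 unchanged genes. The simulation changed 50 genes per fold, all above a minimum count, and gave every other gene the same mean in all groups. The real libraries have far more changed genes, many with few counts, so these rates need not hold for them.

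Named genes were a set list, the 12 rises and 12 falls of greatest fold at 5 CPM or more without overlap, up to 4 rises and 4 falls from each of 31 gene lists at 1 CPM or more, and up to 8 genes per sign of each difference; some further list members were named after their values were seen. The groups compared, the lists and the rule were chosen with earlier results of these data known. The GAAANNGAA and kB promoter motifs were set to their present forms after the shares of longer forms had been seen. Some genes that the rule names are not reported here. Alternatives were RLE size factors, 2 other filters, a fit of the compared groups alone, DESeq2 1.42.0, a replicate block, the structural RNA share as a covariate, and leaving out each library.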

Additional observations from a re-analysis of the deposited data

Results flagged for a closer look

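Single libraries that stood apart from the other 3 of their group are given first, among the genes named in the comparison of both agents with Pam3CSK4 alone. Of 310 groups of 4 values 20 held such a library. For normally distributed values chance alone marks about 1 in 20 groups. A group with counts in only 1 library is always marked, so that rate does not hold for groups of few counts. With both agents these were Socs3 in library 3 (11.4 CPM), Cish in library 1 (5.68 CPM), Atf3 in library 4 (9.35 CPM), Cd40 in library 2 (2.12 CPM), Cxcr2 in library 1 (1.65 CPM) and Rgs2 in library 2 (19.5 CPM). With Pam3CSK4 alone, library 2 stood apart for Pias3 (3.38 CPM), Batf2 (0.0183 CPM), Gbp3 (0.840 CPM), Ccl9 (488 CPM) and Il16 (28.8 CPM). Library 4 did so for Jak2 (60.0 CPM), Tgtp2 (0.0364 CPM), Ifit2 (6.55 CPM), Osm (9.004 CPM) and Lif (0.0546 CPM). Library 1 did so for Ciita (0.208 CPM), Gbp6 (0.0148 CPM) and Serpina3g (0.0297 CPM), and library 3 for Tnf (21.2 CPM). Several of these are 1 or 2 counts in a group otherwise at 0.

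The effect of IFNg differed with and without Pam3CSK4 in wild-type cells, by the test of the difference itself (edgeR, adjusted p under 0.05). The log2 difference was 3.21 for Acod1, 1.76 for Cxcl10, 1.34 for Gvin1, 1.01 for Ifi47, 1.01 for Tnfsf10, 0.92 for Irf7, 0.87 for Trim30a, 0.82 for Jun, 0.71 for Gbp7, 0.67 for Tubb3 and 0.39 for Igtp. It was 0.29 for Tap1, 0.55 for H2-T23, 0.29 for Psmb8, 0.47 for Psmb9, 0.54 for Bst2, 0.43 for Mpeg1 and 0.39 for Ptgs2. Negative differences were -1.30 for Nox1, -0.54 for Gpr12, -0.45 for Nfkbiz, -0.41 for Cep72, -0.39 for Pdgfrb, -0.38 for Tmem176b, -0.36 for Rassf4, -0.36 for Cd72 and -0.30 for Irak3. When each of 16 libraries was left out in turn, the call was lost 13 times for Nox1, 12 for Cep72, 8 for Pdgfrb and for Irak3, 7 for Nfkbiz, 6 for Jun, 5 for Rassf4, 4 for Igtp, 2 for Gvin1 and for Irf7, and 1 time for Tnfsf10. With a replicate block it was lost for Nox1, Cep72, Irak3, Gvin1 and Igtp.

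The effect of IFNg with Pam3CSK4 present differed between the wild-type and mutant lines by the same kind of test. Wild-type minus mutant, it was 5.35 for Serpina3f, 2.44 for Serpina3g, 1.73 for Gvin1, 1.63 for Mpeg1, 1.58 for Nlrc5, 1.53 for Trim30a, 1.52 for Ifi47, 1.52 for Irf7, 1.28 for Gbp7 and 0.73 for Irf8. The value for Serpina3f is fitted against wild-type libraries at 0 and is no bound. That for Serpina3g rests on 2 wild-type counts with Pam3CSK4 alone: it was 4.74 without wild-type Pam3CSK4 library 1, and the call was lost without library 2, 3 or 4 of the same group (edgeR adjusted p = 0.0804, 0.095 and 0.097), without mutant Pam3CSK4 library 3 (0.0519) and under DESeq2 (0.146). Negative differences were -1.91 for Fos, -1.49 for Csf1, -1.25 for Klf6, -1.15 for Il15, -1.02 for Pstpip2, -0.83 for Tubb3 and -0.75 for Cd274.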

How the results depend on the processing

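The count of 4480 genes called between both agents and Pam3CSK4 alone stayed within 1.5 times of itself under every alternative tried, and of 155 genes named in that comparison 140 kept their direction and their side of the threshold in all 15, with none reversed. DESeq2 called 4582 genes, 4429 of them shared with edgeR. The difference of the IFNg effect with and without Pam3CSK4 moved from 88 genes to 172 with no filter on low counts, 154 with only the compared groups, 393 with DESeq2 and 42 with a covariate for structural RNA. It ranged from 44 to 1156 genes when single libraries were left out, and was 20 without wild-type vehicle libraries 1 and 4, an alternative chosen after seeing the data. The difference between lines ranged from 168 to 301 genes when single libraries were left out. Same-numbered libraries of both agents and Pam3CSK4 alone had correlations of -0.17, 0.00, -0.11 and -0.05 in wild-type and -0.02, 0.20, 0.18 and 0.22 in mutant cells, not all over 0.1 in either line, so the numbers were not taken as pairs; with a replicate block 4290, 56 and 211 genes were called in the 3 comparisons. In the comparisons that moved, the cause was not tested. Rises from fewer than 3 counts with Pam3CSK4 alone are limited by depth, and each line is 1 cell line.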
